A study of Mus musculus with 6 samples.

Results

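The sensor genes are 10 genes whose products detect, relay or limit signals from nucleic acids in the cytosol and the endosome: Ddx58, Ifih1, Dhx58, Mavs, Trim25, Tlr3, Tmem173, Zbp1, Eif2ak2 and Adar. They were chosen by name, and every probe set that the platform annotation assigns to a single one of these symbols or its synonyms was taken. This gave 24 of the 45037 non-control probe sets of the array, for 10 of 18193 named genes. Tmem173 is listed in the annotation under its newer symbol Sting1. The cells were AtT-20, an established mouse pituitary tumour line of corticotroph origin. One group (siDNMT1) had received siRNA directed at Dnmt1, the maintenance DNA methyltransferase, and the other (siNT) a non-targeting siRNA, each at 20 nM and given repeatedly for 8 days. Total RNA of 3 independent repeats was hybridised, 1 array per group and repeat, which made 6 arrays. Both groups therefore carried short duplex RNA for the same time. No array of untransfected cells was analysed here, so the comparison is of Dnmt1 knockdown with non-targeting siRNA, and any response to siRNA as such is contained in both groups.

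Cells recognise foreign or misplaced RNA and DNA with a small set of receptors. In the cytosol the helicases RIG-I (Ddx58) and MDA5 (Ifih1) bind duplex RNA and engage the mitochondrial adaptor MAVS, LGP2 (Dhx58) modulates them, and the ubiquitin ligase TRIM25 promotes RIG-I signalling. TLR3 detects duplex RNA in the endosome and signals through another adaptor, TRIF (Ticam1), STING (Tmem173) is the adaptor for cytosolic DNA, and ZBP1 binds left-handed Z-form nucleic acid. The kinase PKR (Eif2ak2) halts translation when it binds duplex RNA, while the editing enzyme ADAR1 (Adar) alters self RNA so that it is not mistaken for foreign. Many of these genes are themselves induced by interferon. Loss of DNA methylation is known in other cells to release endogenous retroviral transcripts that such receptors can bind, which is a reason to look at them after Dnmt1 knockdown.

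Interferon acts on promoters through elements built of GAAA repeats, and the member promoters that hold such a repeat are shown here because they mark which sensors carry the usual interferon-type letters near their start. RefSeq promoter windows of GRCm38.p6, from 250 bases before to 50 after an annotated start, were searched for 7 of the 10 genes, in 9 windows. No window of Zbp1, Dhx58 or Tmem173 was searched. The search of member genes left out the windows of a single chromosome, so a gene on that chromosome need not lack an annotated window. A gene on any other chromosome had no window in the set used. Windows were searched on both strands for GAAANNGAAA and GAAANGAAA. Of the 9 windows, 4 held a match, for 4 genes, against 6.27% of all 32851 windows (3.44% for the first motif and 3.17% for the other). The shares over all windows include the chromosome left out for the members. The 30 bases around each match are given in the direction of the gene, with the match in capitals.
Ddx58, chr4:40239866-40239895, minus strand: tctaggttcaGAAACGAAActggatccccg
Ddx58, chr4:40239804-40239833, minus strand: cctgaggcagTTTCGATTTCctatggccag
Ifih1, chr2:62646206-62646235, minus strand: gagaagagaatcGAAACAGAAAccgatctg
Eif2ak2, chr17:78882535-78882564, minus strand: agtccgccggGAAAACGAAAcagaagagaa
Adar, chr3:89730736-89730765, plus strand: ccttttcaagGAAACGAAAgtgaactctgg

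The Ddx58 and Adar sites with a gap of 1 base share the letters GAAACGAAA. The match of Ddx58 nearer to its start is on the opposite strand, so that it reads TTTCGATTTC in the direction of the gene. With the start as position 1, it begins at position 3, whereas the other Ddx58 match begins at position -60. The matches of Eif2ak2, Adar and Ifih1 begin at positions 19, 29 and 33. The Adar match lay in 1 of its 3 annotated windows. No match was found in the windows of Mavs, Tlr3 and Trim25, which says only that these letters are not there. The 250 bases before the Ddx58 start, the only stretch of a searched member promoter with a match before the start, held 12 CpG dinucleotides, the substrate of Dnmt1.
Ddx58, chr4:40239826-40240075, minus strand: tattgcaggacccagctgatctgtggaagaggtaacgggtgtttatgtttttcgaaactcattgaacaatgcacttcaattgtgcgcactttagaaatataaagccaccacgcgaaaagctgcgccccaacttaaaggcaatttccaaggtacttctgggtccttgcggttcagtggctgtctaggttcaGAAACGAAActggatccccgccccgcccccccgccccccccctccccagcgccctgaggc

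Over their whole 300 bases the searched member windows held 6 to 34 CpG dinucleotides, with the lowest and the highest count both among the windows of Adar. The Ddx58, Ifih1, Eif2ak2, Mavs and Trim25 windows held 15, 14, 17, 19 and 18, and the Tlr3 window 10. Over all windows the median was 7 and the quartiles were 3 and 20, so these counts lay between the quartiles. DNA methylation itself was not measured.

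Signals are linear intensities scaled so that every array has the same median log2 signal. Differences are knockdown minus control on the log2(scaled signal + 5.29) scale, so a change of a signal near 5.29 appears smaller than it is. The scale factors ran from 0.781 to 1.43, and repeat 2 was the brightest before scaling. Dnmt1 was lower in the knockdown on all of its 3 probe sets and in 3 of 3 repeats. Its brightest probe set was at 219 ± 79.6 against 620 ± 80.4 (SD, n = 3), a difference of -1.54 (SE 0.24), with 39.6%, 20.2% and 48.6% of the control signal left in repeats 1 to 3. Its limma adjusted p was 0.151, and 0.0211 in a paired fit that has a term for each repeat. The corticotroph markers were present, with Pomc at a mean signal of 8836 and the lineage factor gene Tbx19 at 1516. Of 10 macrophage and dendritic cell markers 6 were bright enough to test. Lyz2 was at a mean signal of 278, Csf1r at 122, Cd74 at 80.9, Emr1 at 55.4 and Cd68 at 34.6, and Cd14 was the dimmest of the 6. Ptprc, the leukocyte marker CD45, was too dim to test, at 8.32, as were Itgam, Fcer1g and Tyrobp. The summed signal of those 10 markers was 599 to 687 on the knockdown arrays and 609 to 652 on the controls. It was 148 to 208 and 134 to 166 for 6 fibroblast markers and 40.7 to 110 and 43.9 to 119 for 3 lymphocyte markers. For 4 endothelial markers it was 93.3 to 108 and 55.9 to 93.5. The groups overlapped for each list, but only just for the endothelial markers. Of the 4 tested fibroblast markers 3 had values above 0 and 1 below. The largest was Pdgfra, at 1.26 (SE 0.47), which was tested only through the knockdown arrays. The part of such cells in the results was not tested.

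None of the sensor genes passed the threshold. Of the 24 probe sets, 18 for 8 genes reached the minimum mean signal of 16.8 and were tested, while Ifih1 and Tlr3 had no probe set that did. The unpaired limma fit called 0 of the 18, and 0% of all 27022 tested probe sets. The paired fit also called 0 of the 18, and 0.0851% of all. The smallest limma adjusted p of a member was 0.9997 in the unpaired fit and 0.262 in the paired one. At an unadjusted p under 0.05 there were 4 member probe sets in either fit, all with higher values in the knockdown, of Zbp1, Tmem173 and Dhx58. The Dhx58 probe set among them reached the minimum signal only through the knockdown arrays, and 3 are left in either fit without such probe sets. Over the array 3.79% of probe sets lay under that p when unpaired and 7.83% when paired, and 1.32% and 2.45% when only higher values are counted. Because the genes were chosen with earlier results of these arrays known, that count is a description.

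The direction of the members was mixed. Of the 18 tested probe sets, 9 had values above 0 and 9 below, where 40.8% of all tested probe sets were above 0 and 59.2% below. Their median was 0.06, beside -0.06 over all tested probe sets. With the brightest tested probe set standing for each of the 8 genes, 4 were above 0 and the median was 0.10. That median was 0.37 in repeat 1 but 0.08 in repeat 2 and 0.09 in repeat 3. The groups were fully apart on 2 tested member probe sets with higher values in the knockdown (2.96% over the array) and on 1 with lower values (5.78%). Values were higher in 3 of 3 repeats on 5 of the 18 (10.1% over the array) and lower in 3 of 3 on 2 (19.2%). For any single probe set, the smallest two-sided p of an exact permutation test with 3 arrays per group is 0.1.

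**Figure D1:**
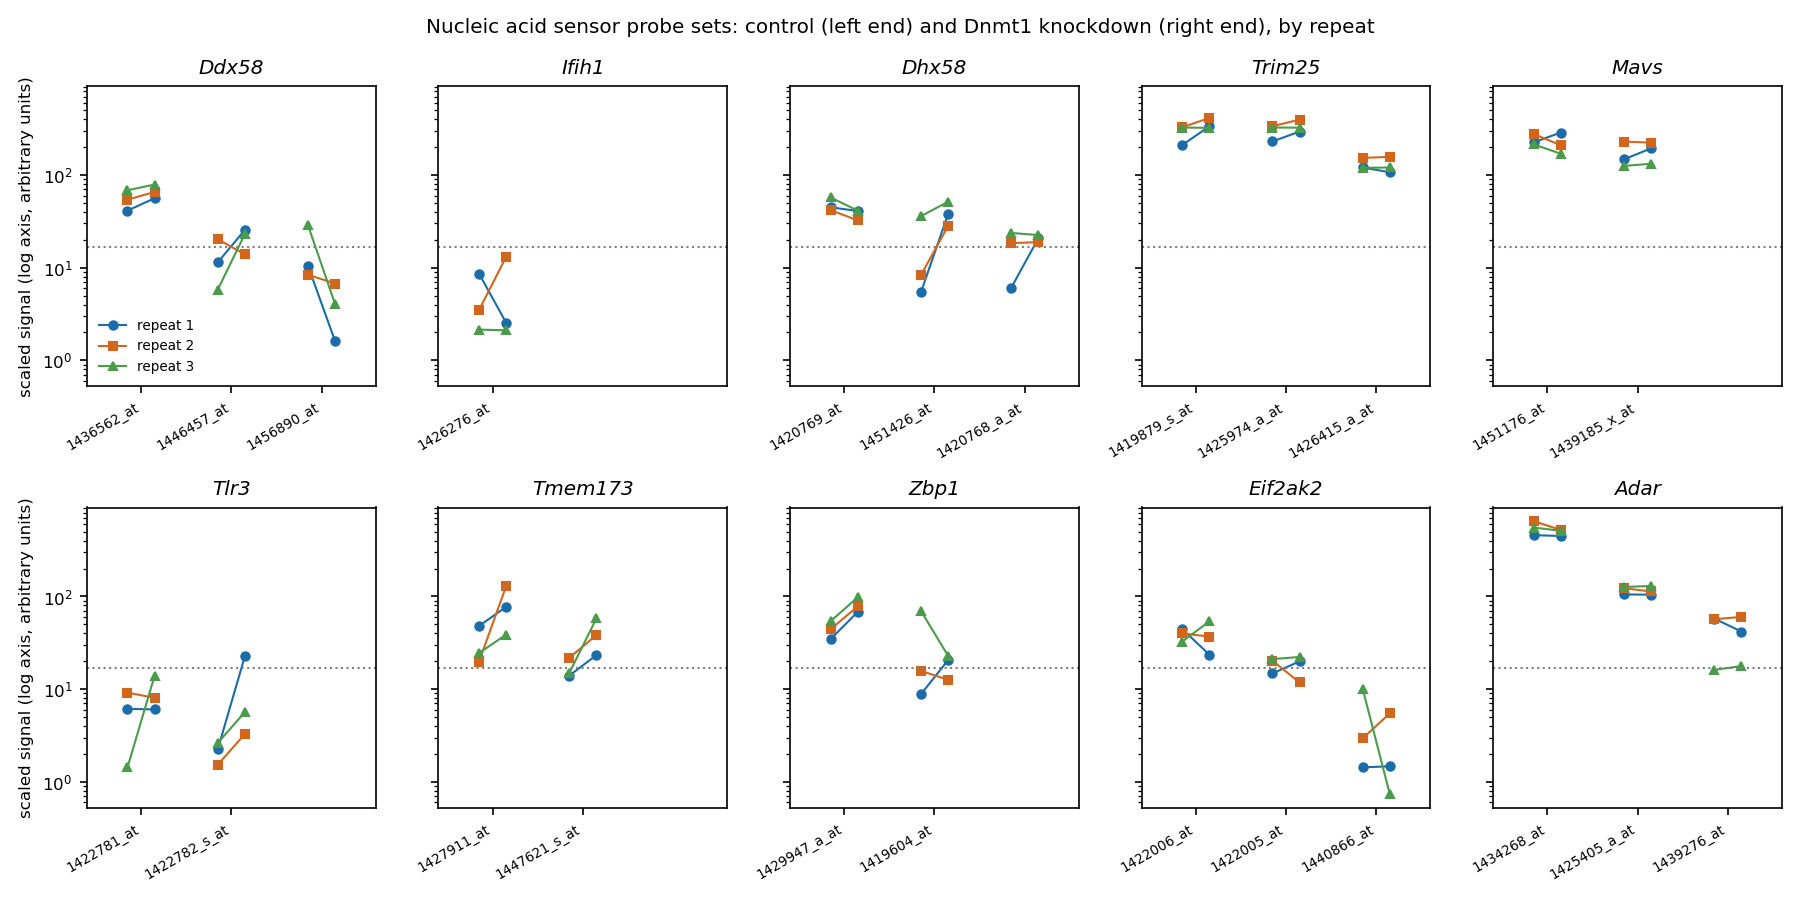
Scaled signal on a log axis for all 24 probe sets of the 10 genes, 1 panel per gene, with the control at the left end and the knockdown at the right end of each line and 1 line per repeat; the dotted line is the minimum mean signal for testing, 16.8. Lines of the brightest Zbp1 probe set and of both Tmem173 (Sting1) probe sets end higher than they begin in all 3 repeats, those of Adar, Mavs and Trim25 move little or in both directions, and the Ifih1 and Tlr3 signals lie mostly under the dotted line.

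Zbp1 gave the most even difference of the members. On its brighter probe set, 1429947_a_at, the knockdown signals were 68.1, 78.0 and 97.8 in repeats 1 to 3 and the control signals 34.6, 44.3 and 54.1. Every knockdown array was above every control array. The means were 81.3 ± 15.1 and 44.4 ± 9.73 (SD, n = 3), and the differences within the repeats were 0.88, 0.75 and 0.79. The estimate was 0.81 (SE 0.24, 95% interval 0.28 to 1.33), with a limma adjusted p of 0.9997 and, in the paired fit, 0.262 (0.198 to 0.999992 over 20 alternatives). The other Zbp1 probe set, 1419604_at, did not repeat this. Its knockdown signals were 20.5, 12.7 and 23.0 and its control signals 8.80, 15.7 and 70.1, so that the groups overlapped and control array 3 stood far above the other control arrays. Its difference was -0.26 (SE 0.56, 95% interval -1.49 to 0.98), and in repeats 1 to 3 it was 0.87, -0.23 and -1.41. The probe sets of Zbp1 thus had values of the same direction in repeat 1 alone. Leaving out knockdown array 2 brought 1419604_at to -0.06, and leaving out repeat 1 in the paired fit to -0.83.

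Tmem173, the gene of STING, had higher values in the knockdown on both of its probe sets and in 3 of 3 repeats on each. On 1427911_at the knockdown signals were 77.3, 129 and 38.7 against 48.0, 19.8 and 24.6 in the controls. The groups overlapped, since knockdown array 3 lay below control array 1. The difference was 1.20 (SE 0.40, 95% interval 0.32 to 2.09), and it varied from 0.63 in repeat 1 and 0.56 in repeat 3 to 2.42 in repeat 2. On 1447621_s_at the knockdown signals were 23.3, 38.3 and 57.9 and the control signals 14.0, 21.8 and 15.0. Here the groups did not overlap, the difference was 0.97 (SE 0.36, 95% interval 0.17 to 1.77), and it was largest in repeat 3, at 1.64. Without that repeat the paired value was 0.63. The repeat with the largest difference was thus not the same for the 2 probe sets. Neither passed, with limma adjusted p of 0.9997 for each when unpaired and 0.360 and 0.539 when paired. Without repeat 3, on 4 arrays, the paired fit gave 1427911_at a difference of 1.53 (limma adjusted p = 2.75e-05). Without repeat 2 the paired value was 0.59 (limma adjusted p = 0.653). Over 20 alternatives its adjusted p ran from 2.75e-05 to 0.999992. In the fit without repeat 3 limma called 261 probe sets of the array, against 23 with all repeats.

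The RIG-I-like helicase genes were dim, and their probe sets went different ways. For Ddx58, the gene of RIG-I, only 1436562_at was tested. Its knockdown signals were 56.1, 65.5 and 78.8 and its control signals 41.2, 54.2 and 68.4. The knockdown was higher in each repeat, but signals differed more between repeats than between the groups, which overlapped. The difference was 0.28 (SE 0.24, 95% interval -0.26 to 0.82), but 0.11 without control array 1 and 0.44 without control array 3. The 2 dimmer Ddx58 probe sets, at mean signals of 4.12 to 20.8 in either group, differed by 0.61 and -1.08 and were not tested.

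Dhx58, the gene of LGP2, had 3 tested probe sets. On 1451426_at the knockdown signals were 37.5, 28.0 and 51.3 and the control signals 5.40, 8.29 and 35.9. Control arrays 1 and 2 were close to the pseudocount, and control array 3 lay above knockdown array 2, so the groups overlapped. The difference was 1.25 (SE 0.49, 95% interval 0.17 to 2.33), with 2.00 in repeat 1, 1.29 in repeat 2 and 0.46 in repeat 3. Its limma adjusted p was 0.9997, and 0.420 in the paired fit (0.282 to 0.999992 over 19 alternatives). With a pseudocount of 32 the difference was 0.59. The control mean of 16.5 was below the minimum of 16.8, so this probe set was tested only because its knockdown signals were high, and its p-values are not evidence of a change. The brightest Dhx58 probe set, 1420769_at, pointed the other way. Its knockdown signals were 40.9, 32.4 and 41.3 and its control signals 44.8, 41.8 and 57.1, apart by less than 1 signal unit at the nearest arrays, and the difference was -0.29 (SE 0.24, 95% interval -0.82 to 0.25), or -0.17 without control array 3. The remaining one, 1420768_a_at, differed by 0.39 (SE 0.45), almost wholly through control array 1, at 6.04 against 18.4 and 23.7 on the other control arrays, and it too had a control mean under the minimum. Without repeat 1 its paired value was -0.018.

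Ifih1, the gene of MDA5, had a single probe set, 1426276_at. Its signals were 2.54, 13.1 and 2.11 in the knockdown and 8.63, 3.48 and 2.14 in the controls. All 6 lay below the minimum for testing, most of them near or under the pseudocount, and the direction differed between repeats. A change of Ifih1 was not measurable on these arrays.

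**Figure D2:**
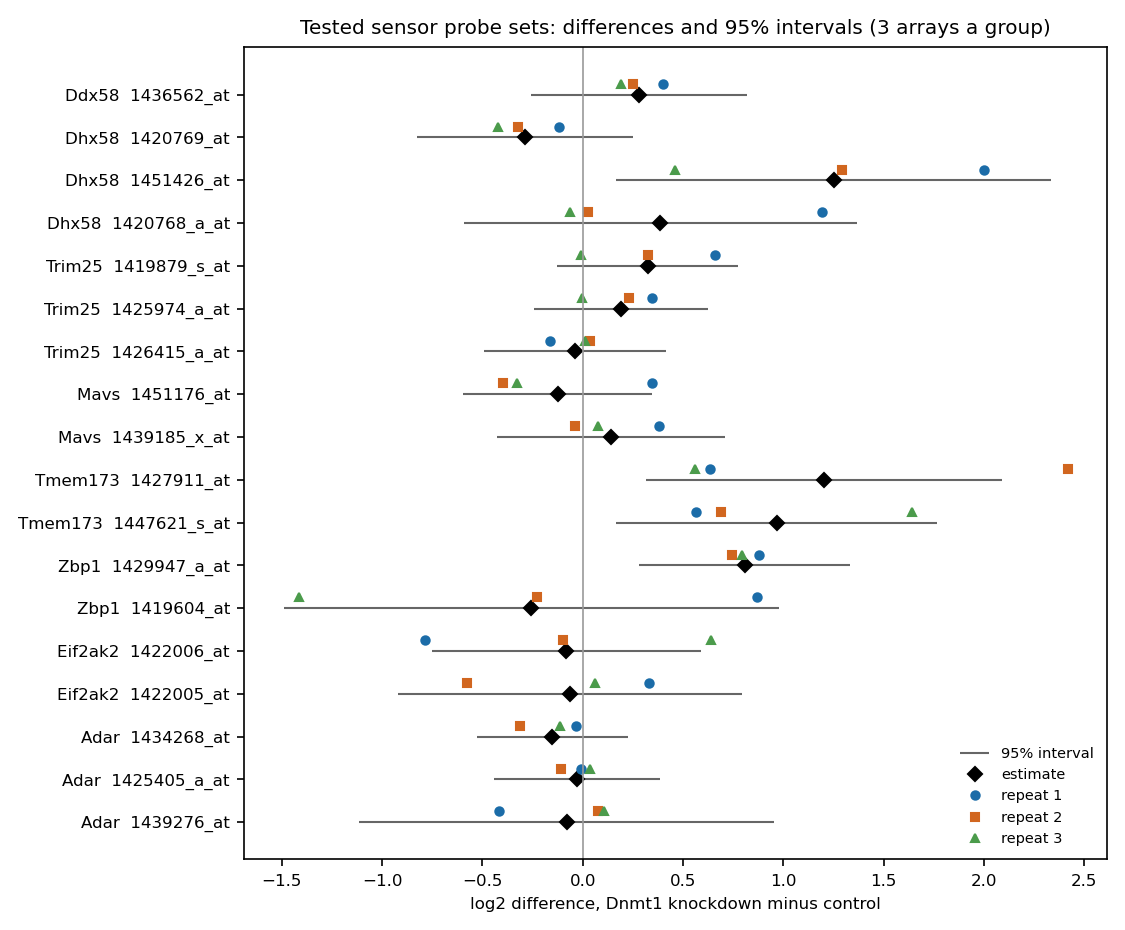
Log2 differences, knockdown minus control, of the 18 tested probe sets: diamonds are limma estimates, bars their 95% intervals without the block, and small symbols the differences within repeats 1 to 3. The intervals of 4 probe sets, of Tmem173 (2), Zbp1 and Dhx58, lie above 0 before any adjustment, and the intervals of all other probe sets, further ones of Zbp1 and Dhx58 included, reach across 0.

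The partners that carry the RIG-I signal were brighter, and their values lay between -0.13 and 0.32. Trim25 had 3 tested probe sets. On 1419879_s_at the knockdown signals were 334, 411 and 323 against 210, 327 and 325, and the difference was 0.32 (SE 0.21, 95% interval -0.13 to 0.78). On 1425974_a_at they were 294, 396 and 324 against 230, 336 and 325, with a difference of 0.19 (SE 0.20, 95% interval -0.24 to 0.63). On these probe sets repeats 1 and 2 had higher values in the knockdown, and in repeat 3 the signals differed by less than 3 units. Without control array 1 the differences were 0.12 and 0.021. The dimmer 1426415_a_at, at 128 ± 25.8 against 131 ± 19.0 (SD, n = 3), differed by -0.04 (SE 0.21).

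Mavs, the adaptor gene of the helicases, had signals of 287, 209 and 170 in the knockdown and 225, 277 and 214 in the controls on 1451176_at. The knockdown was higher in repeat 1 and lower in repeats 2 and 3. The difference was -0.13 (SE 0.22, 95% interval -0.60 to 0.35), and that of its other probe set, 1439185_x_at, was 0.14 (SE 0.26, 95% interval -0.43 to 0.71). Each turned its direction when 1 array was left out, to 0.047 without knockdown array 3 and to -0.038 without control array 3. The intervals of the Mavs and Trim25 probe sets leave room for changes of up to 0.78 upwards and 0.60 downwards, so a smaller change cannot be told from none.

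The endosomal receptor gene Tlr3 was at the lower end of what these arrays measure. Its probe set 1422781_at gave 6.04, 8.05 and 13.9 in the knockdown and 6.13, 9.18 and 1.43 in the controls. Its probe set 1422782_s_at gave 22.6, 3.28 and 5.64 against 2.24, 1.53 and 2.63, apart in every repeat but mostly under the pseudocount of 5.29. Neither was tested.

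Eif2ak2 and Adar encode a kinase and an editing enzyme that bind duplex RNA once it is present. Their tested probe sets all had small differences below 0, from -0.15 to -0.03, where the median over all tested probe sets was -0.06. Except on Adar 1434268_at, the direction differed between repeats. On the brightest Eif2ak2 probe set, 1422006_at, the knockdown signals were 23.6, 37.0 and 53.7 and the control signals 44.6, 39.9 and 32.6. The knockdown was lower in repeats 1 and 2 and higher in repeat 3, and the difference was -0.08 (SE 0.30, 95% interval -0.75 to 0.59), with a paired value of 0.27 without repeat 1 and -0.44 without repeat 3. The dimmer 1422005_at differed by -0.06 (SE 0.39), and 1440866_at, at 0.736 to 10.1 on the 6 arrays, was not tested. Adar was brighter, with knockdown signals of 449, 523 and 512 and control signals of 459, 650 and 554 on 1434268_at. The knockdown was lower in 3 of 3 repeats, by little in repeat 1, and the difference was -0.15 (SE 0.17, 95% interval -0.53 to 0.22), or -0.03 without control array 2 and -0.28 without control array 1. Its probe set 1425405_a_at, at 116 ± 12.8 against 118 ± 11.4 (SD, n = 3), differed by -0.03 (SE 0.19). On 1439276_at the signals of repeat 3 were 17.7 and 16.1 while those of the other repeats were 41.9 to 60.2, a drop shared by both groups, and the difference was -0.08 (SE 0.47).

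The promoter search covered other genes than those with the larger values. Of the 4 genes with a match, the brightest tested probe sets of Ddx58, Eif2ak2 and Adar were at 0.28, -0.08 and -0.15, and Ifih1 was not tested. Of the 3 genes whose probe sets had an unadjusted p under 0.05, none had a promoter window that was searched. Either the gene had no window in the set or its chromosome was left out of the search. Whether their promoters hold a match is therefore not known here.

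Precision followed brightness. The median SE of the difference was 0.41 for tested probe sets of mean signal up to 30 and 0.29 at 30 to 60, against 0.21 at 120 to 240 and 0.16 above 480. The tested member probe sets had a median SE of 0.25, and all tested probe sets 0.26. All tested probe sets of Dhx58, Tmem173 and Eif2ak2 had mean signals under 60, where differences are least precise.

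Over the 6 arrays, the genes whose log2 signals followed those of Zbp1 1429947_a_at most closely were Sf3b6, Apbb1ip, Dtx2, Slc26a3 and Tpd52l2, with Pearson r of 0.99, 0.99, 0.98, 0.98 and 0.98. All r are over 6 points that share the arrays, picked as the highest of all named probe sets, and they are given as a description. The differences of these genes were 0.12, 0.60, 0.67, 0.70 and 0.33, and none passed in either limma fit.

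The rest of the pathway was read from 6 lists of 97 genes, of which 86 had a probe set of their own and 79 a tested one. Limma called 0 of the 79 in either direction, paired or not; 6 had an unadjusted p under 0.05 in the unpaired fit (7.59%, beside 3.79% of all tested probe sets) and 12 in the paired one (15.2%, beside 7.83%). For 6 of the 79, Ikbke, Lrrfip1, Eif2ak4, Gsdmd, Ifit1 and Ifit3, the mean of 1 group was below the minimum signal, so that they were tested only through the other group. Without them the counts were 5 and 11. As the lists were chosen with earlier results known, these counts are a description. Values were above 0 for 35 and below 0 for 44 (55.7%, beside 59.2% of all tested probe sets), with a median of -0.05 beside -0.06. The groups were fully apart on 6 of the 79 with higher values in the knockdown (2.96% over the array), Gsdmd among them. They were apart on 3 with lower values (5.78% over the array).

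Adaptors, kinases and transcription factors downstream of the sensors had 17 tested genes, 12 above 0, with a median of 0.08. The members with the smallest p were Rela, the transactivating NF-kappa-B subunit, at 0.33 (SE 0.15), Irf7, the factor that amplifies interferon transcription, at 0.29 (SE 0.18), Irf5 at -0.41 (SE 0.27) and the kinase gene Ikbke at 1.06 (SE 0.70). Rela signals were 719 ± 28.1 against 573 ± 73.5 and those of Irf7 173 ± 22.0 against 140 ± 6.87 (SD, n = 3), and neither overlapped between groups. The other tested Irf5 probe set was at 0.22. Ikbke was at 1.12 and 2.39 in repeats 1 and 2 and at -0.32 in repeat 3. It was tested only through the knockdown arrays, and the paired fit without repeat 3 gave 1.77 (limma adjusted p = 0.00411).

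Other nucleic acid sensors had 14 tested genes, of which 12 were below 0, with a median of -0.20. The RNA helicase gene Ddx1 differed by -0.49 (SE 0.20), Dhx9 by -0.26 (SE 0.19), Lrrfip1 by -0.69 (SE 0.45) and Unc93b1, which brings endosomal receptors to their compartment, by -0.30 (SE 0.23). Without control array 2 the values were -0.10 for Dhx9 and -0.08 for Unc93b1, and without repeat 3 the paired value of Ddx1 was -0.29. Lrrfip1 was tested only through the control arrays. Tlr7, Aim2, Ifi204 and Ddx60 were too dim to test.

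Enzymes and regulators that clear or modify nucleic acids or tune the sensors had 18 tested genes, 7 above and 11 below 0, with a median of -0.07. Trim56, a ubiquitin ligase linked to STING, differed by 0.94 (SE 0.34), with signals of 46.0 ± 3.84 against 23.2 ± 13.2 (SD, n = 3) that did not overlap. Tnfaip3, the feedback inhibitor A20 of NF-kappa-B, was at 0.50 (SE 0.27), Rnf125 at -0.31 (SE 0.21) and Atg5 at -0.34 (SE 0.24). Tnfaip3 was at 0.22 without control array 1, Rnf125 at -0.12 without knockdown array 3 and Atg5 at -0.12 without knockdown array 1. The other tested Atg5 probe sets were at -0.28 and 0.31.

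PKR partners and the other eIF2 kinases had 10 tested genes, 8 of them below 0, with a median of -0.12. Eif2ak3, the kinase PERK of the endoplasmic reticulum, was at 85.1 ± 13.7 against 135 ± 11.0 (SD, n = 3), with no overlap and a difference of -0.65 (SE 0.20). Eif2ak1 was at -0.38 (SE 0.20), Tarbp2 at -0.17 (SE 0.27) and Atf4, the factor translated when eIF2 is phosphorylated, at -0.10 (SE 0.15). The other tested probe sets of Tarbp2 and Atf4 were at 0.19 and 0.08.

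Partners of ZBP1 in cell death had 5 tested genes. Gsdmd, which encodes the pore-forming protein of pyroptosis, was at 51.0 ± 12.9 against 6.42 ± 0.981 (SD, n = 3) and differed by 2.24 (SE 0.36). Its limma adjusted p was 0.151, or 0.0701 when paired (0.00066 to 0.947 over 19 alternatives). The probe set was tested only because its knockdown signals were high, since the control mean was under the minimum of 16.8, and its p-values are not evidence of a change. The paired fit without repeat 3 gave the lowest of those p-values. Its control signal lay near the pseudocount, and with a pseudocount of 32 its difference was 1.10. Mlkl, the executor of necroptosis, was at 0.40 (SE 0.42), with a paired value of 0.035 without repeat 1, Pycard at 0.05 (SE 0.16) and Gsdme at -0.12 (SE 0.21), while Ripk3, Casp1 and Casp4 were too dim to test. The other tested Pycard probe set was at 0.79.

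The interferon loop and its targets had 15 tested genes, 8 above and 7 below 0, with a median of 0.02. Irf9, a subunit of the interferon-activated factor ISGF3, was at 66.7 ± 6.74 against 36.4 ± 10.02 (SD, n = 3), with no overlap and a difference of 0.81 (SE 0.25). Usp18, a brake on interferon signalling, was at 0.55 (SE 0.24), Oas2 at 1.08 (SE 0.51) and the receptor kinase gene Jak1 at -0.64 (SE 0.31). The groups did not overlap for Usp18 either, nor for Jak1 and Ccl5, whose values were lower in the knockdown. Irf9 was higher by 0.82, 0.46 and 1.15 in repeats 1 to 3, while Oas2 was at 2.02 and 1.25 in repeats 1 and 2 and at -0.04 in repeat 3. Without knockdown array 2 Usp18 was at 0.26, without control array 1 Oas2 was at 0.50, and without repeat 1 the paired value of Jak1 was -0.40. In the paired fit without repeat 3, Usp18 was at 0.78 (limma adjusted p = 0.0214) and Oas2 at 1.65 (limma adjusted p = 0.04).

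**Figure D3:**
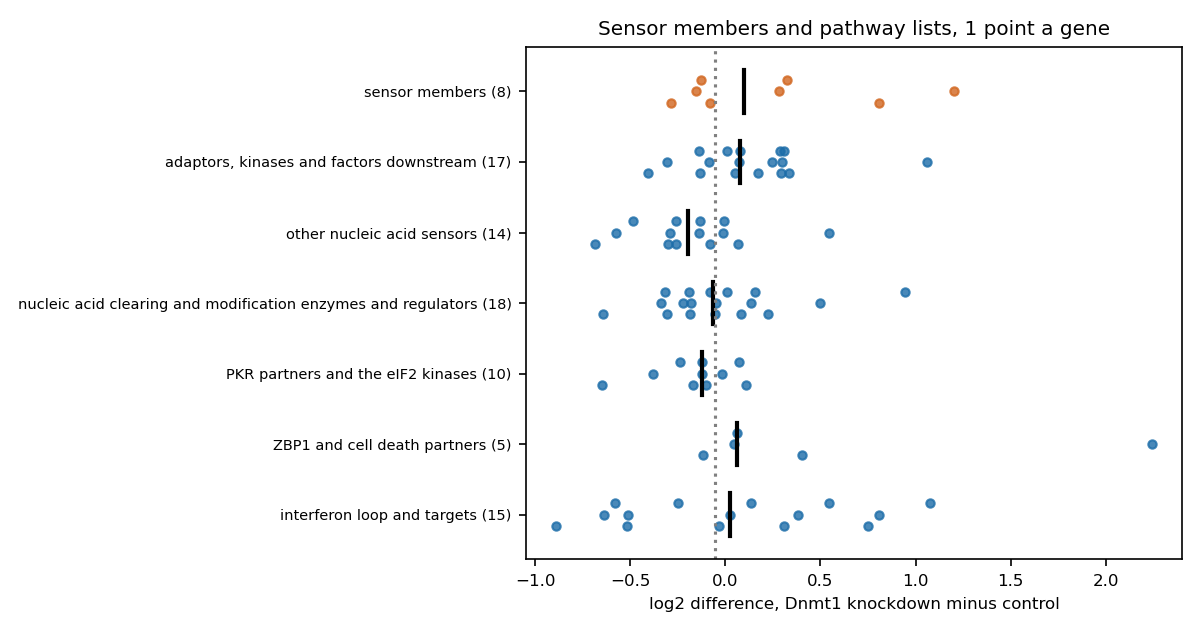
Log2 difference, knockdown minus control, of each tested gene (its brightest tested probe set) for the sensor genes and the 6 pathway lists, with the number of genes in brackets; black bars are list medians and the dotted line is the median over all tested probe sets, -0.06. Genes of the interferon loop spread from -0.89 to 1.08, and the point farthest from 0 is Gsdmd, at 2.24, whose control signals were below the minimum for testing.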

How the data were processed

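Per the submitters' processing notes the deposited table comes from GCOS, Affymetrix software, and holds linear intensities, 1 for each array and probe set. Algorithm settings and detection calls: not given in the sources used here. Arrays were brought to a common median log2 signal, 5.29 (the 20th percentile of all deposited intensities) was added, and log2 was taken. Probe sets under the 40th percentile of mean scaled signal, 16.8, and 64 control probe sets were not tested.

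Differences were tested with limma 3.58.1 in R 4.3.3 (functions lmFit and eBayes, the latter with trend on), two-sided and without the repeat number. Benjamini-Hochberg adjustment covered all 27022 probe sets, and the threshold was 0.05. Both fits were tested on simulated data and recovered the size of the changes and the coverage of the intervals. With noise drawn from limma's fitted variance trend, both called most of the changes put in, but with residual spreads shuffled over probe sets the paired fit called none of them. The paired fit adds the repeat number as a block. Same-numbered arrays deviated together (correlations of 0.173, 0.231 and 0.257 between their deviations), so the numbers were taken as pairs, and paired values are given where they bear on a result. The p-values measure the spread between 3 independent repeats.

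Named were all member probe sets, Dnmt1, from each list the 4 tested genes with the smallest unadjusted p, and the 5 genes most correlated with the member of smallest p. A list gene is represented by its brightest tested probe set. Members and lists were chosen with earlier results of these data known. Symbols came from the platform annotation. Alternatives were other scalings, pseudocounts and filters, the block, no trend, no moderation, no _x_at and _s_at probe sets, means of probe sets, and leaving out arrays or repeats. The number of arrays limits the precision.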

Additional observations from a re-analysis of the deposited data

How the results depend on the processing

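The repeat numbers were used as a block in the paired fit, which called 23 probe sets of the array instead of 0 and moved Dnmt1 past the threshold at the same difference, -1.54. It changed no call of a sensor gene or of a pathway gene. Of 348 tests of member probe sets under alternatives, 1 passed, Tmem173 1427911_at in the paired fit without repeat 3. Of 256 member values under alternatives other than leaving out arrays, 251 kept their direction and their side of the threshold or moved by less than the spread between repeats. The other 5 turned upwards while staying near 0. Adar 1425405_a_at was at 0.032 with trimmed mean scaling, 0.033 with quantile normalization and 0.00031 without scaling, and Trim25 1426415_a_at at 0.021 with trimmed mean scaling and 0.020 with quantile normalization. The median of the member genes ran from 0.06 to 0.23 over 19 alternatives, and the number of member probe sets above 0 from 6, with the 60th percentile filter or without _x_at and _s_at probe sets, to 13 without a filter. Array-wide, limma without the block called 1 probe set with trimmed mean scaling, with quantile normalization, with a pseudocount of 32, with the 60th percentile filter and without _x_at and _s_at probe sets, and 2 without scaling. Leaving out 1 array, or 1 repeat in the paired fit, gave 0 to 261 calls over the array, 0 to 1 among the members and 0 to 6 among the pathway genes, each time with the highest count without repeat 3. Dnmt1 then ran from -1.79 to -1.17. The causes were not tested. Among tested probe sets, the ranges that crossed 0 were -0.11 to 0.041 for Adar 1425405_a_at, -0.60 to 0.35 for Adar 1439276_at, -0.018 to 0.66 for Dhx58 1420768_a_at, -0.44 to 0.27 for Eif2ak2 1422006_at and -0.26 to 0.19 for Eif2ak2 1422005_at. They were -0.36 to 0.047 for Mavs 1451176_at, -0.038 to 0.38 for Mavs 1439185_x_at, -0.19 to 0.077 for Trim25 1426415_a_at, -0.41 to 0.27 for Tarbp2, -0.21 to 0.038 for Atf4, -0.25 to 0.0028 for Gsdme and -0.047 to 0.099 for Pycard. Signal close to background is what limits Ifih1, Tlr3 and the dimmer Ddx58 and Eif2ak2 probe sets. The values of Dnmt1 and of pathway genes under alternatives were added after seeing the data, as was the count above 0.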
